A study of Mus musculus with 6 samples.

Results

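The retinoic acid genes described here are the 9 genes of synthesis (Aldh1a1, Aldh1a2, Aldh1a3), cellular binding (Crabp1, Crabp2), degradation (Cyp26b1) and nuclear reception (Rara, Rarb, Rarg) in the embryonic mouse telencephalon. They were taken by gene symbol, all 9 were found among the 24444 gene symbols of the deposited table, and all 9 were among the 14249 genes kept for testing. The polyadenylated RNA of C57BL/6J embryos at E12.5 (embryonic day) was sequenced in 3 libraries labelled Arl13b-/- (called Arl13b-null 1 to 3) and 3 labelled Wild-type (wild-type 1 to 3). Arl13b is the gene of a GTPase found in primary cilia, which are the subject of the series together with axon tract formation. The labels name no other allele or agent and do not say whether each library came from a separate embryo, so the spread behind each p-value is that of these libraries and can hold technical variation.

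Retinoic acid is made from retinaldehyde by the aldehyde dehydrogenases Aldh1a1, Aldh1a2 and Aldh1a3, carried in the cytoplasm by Crabp1 and Crabp2, and removed by the cytochrome P450 enzymes of the Cyp26 family, of which Cyp26b1 is a member. In the nucleus it binds the receptors Rara, Rarb and Rarg, which act as heterodimers with the Rxr receptors on direct repeats of a short half-site. In the embryonic forebrain Aldh1a2 is known from the meninges and Aldh1a3 from the lateral ganglionic eminence, the ventral region that forms the striatum. Crabp2 is known as a carrier that delivers retinoic acid to the receptors, and Rarb is a gene that the receptors themselves induce.

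The best-known response element of the pathway lies in the Rarb promoter, and its sequence is shown because Rarb is both a member and a target of the receptors. Promoter windows from RefSeq (build GRCm38.p6), reaching from 250 bases before to 50 bases after an annotated start, were at hand for 7 of the 9 genes, in 12 windows. They were searched on both strands for the half-site NGNTCA, with A or G at its first place and G or T at the third, as a direct repeat with a spacer of 5 bases (DR5). The Rarb window, chr14:16575427-16575726 on the minus strand, held 1 match, which starts 53 bases before the annotated start. None of the other 11 windows did. Across all 32851 windows of this length, 32 (0.0974%) held such a repeat, and the window of Cyp26a1, another retinoic acid hydroxylase gene, was among them. In the lines below capitals mark the half-sites, each match is read 5′ to 3′ on its own strand, and the whole Rarb window comes last. The Cyp26a1 match is on the minus strand at chr19:37697776-37697792.
Rarb DR5: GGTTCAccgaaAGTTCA
Cyp26a1 DR5: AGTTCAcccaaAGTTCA
Rarb window: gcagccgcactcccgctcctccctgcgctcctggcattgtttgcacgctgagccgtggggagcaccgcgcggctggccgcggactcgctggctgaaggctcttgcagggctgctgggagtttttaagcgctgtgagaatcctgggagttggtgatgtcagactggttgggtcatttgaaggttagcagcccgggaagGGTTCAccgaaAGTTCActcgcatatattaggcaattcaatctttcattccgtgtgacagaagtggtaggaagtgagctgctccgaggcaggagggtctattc

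Levels are given as normalized counts, obtained by undoing the variance-stabilising transformation of the deposited values, and differences are given in variance-stabilised log2 units. At low counts a difference in these units is smaller than the log2 ratio of the counts. The normalized counts summed to between 27500000 and 36200000 per library. Arl13b itself had 492, 532 and 564 normalized counts in Arl13b-null 1 to 3 and 661, 553 and 560 in wild-type 1 to 3 (limma adjusted p = 0.990), so its transcript does not check the genotype labels. Arl13b-null 2 and wild-type 1 stood apart from the rest, with Pearson correlations across genes of at most 0.722 and 0.898 with the other 4 libraries, which correlated with each other at 0.985 or more. Those other 4, Arl13b-null 1 and 3 and wild-type 2 and 3, are called the coherent libraries, and the difference of each of the 9 genes is given over all 6 libraries and over these 4. Markers of the telencephalon were summed over 10 genes to 22723, 23506 and 14176 normalized counts in Arl13b-null 1 to 3 and 22440, 28280 and 36644 in wild-type 1 to 3. Among the coherent libraries the sum was lowest in Arl13b-null 3. In Arl13b-null 2 most of the sum came from Tbr1, a gene of early cortical neurons, with 12151, and from Lhx2, which also marks adjoining forebrain, with 7873, and the mean variance-stabilised value of the list was lower there than in Arl13b-null 3 (8.80 and 9.48). Among the coherent libraries the Y-linked Ddx3y had 0 and 1.23 normalized counts in the Arl13b-null libraries and 1093 and 1258 in the wild-type libraries, so sex and genotype cannot be told apart there. Arl13b-null 2 and wild-type 1 had 0 and 0.537, so over 6 libraries Ddx3y was above 1.23 only in wild-type 2 and 3. The X-linked Xist had 244 in Arl13b-null 2 and 15101 in wild-type 1, and the sex of Arl13b-null 2 is not clear from these genes.

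None of the 9 genes passed the threshold between Arl13b-null and wild-type libraries. Over 6 libraries 0 of 9 had an adjusted p under 0.05 in limma, against a background of 0% of 14249 genes, and 0 had an unadjusted p under 0.05, against 1.14% of all genes. Differences of 3 members were above 0 and of 6 below 0, with a median of −0.40, beside a median of 0.0026 over all genes tested. Over the 4 coherent libraries 0 of 9 passed, against 0.253% of all genes. Only Crabp2 had an unadjusted p under 0.05 there, against 14.4% of all genes. The members' median was then 0.0073, beside 0.023 over all genes. The groups overlapped for all 9 genes over 6 libraries, where 8.26% of all genes had groups that did not overlap. They did not overlap for 2 of 9, Aldh1a1 and Crabp2, over 4 libraries, where the background is 47.5%.

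**Figure D1:**
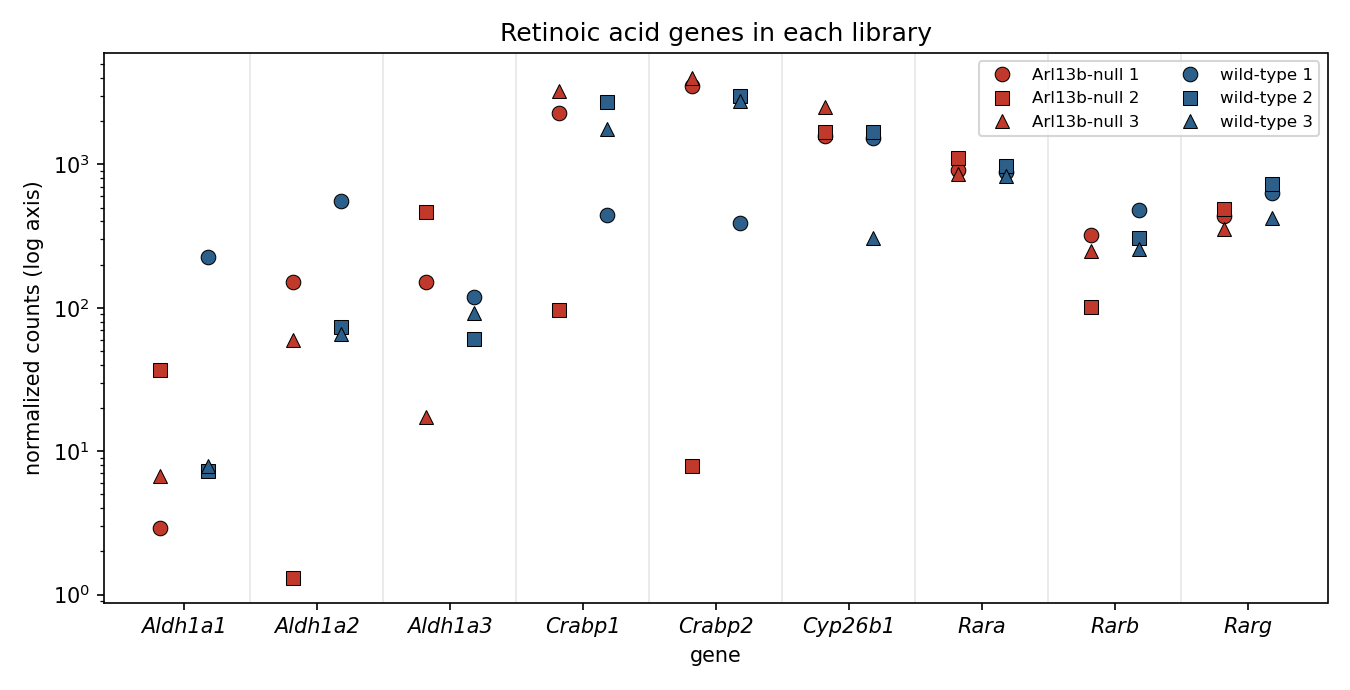
Normalized counts (log axis) of the 9 retinoic acid genes, by gene on the horizontal axis, with each point 1 library, Arl13b-null in red on the left and wild-type in blue on the right of each gene. Crabp2 spans 7.91 to 4006 normalized counts, while the 6 values of Rara lie between 834 and 1109.

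**Figure D2:**
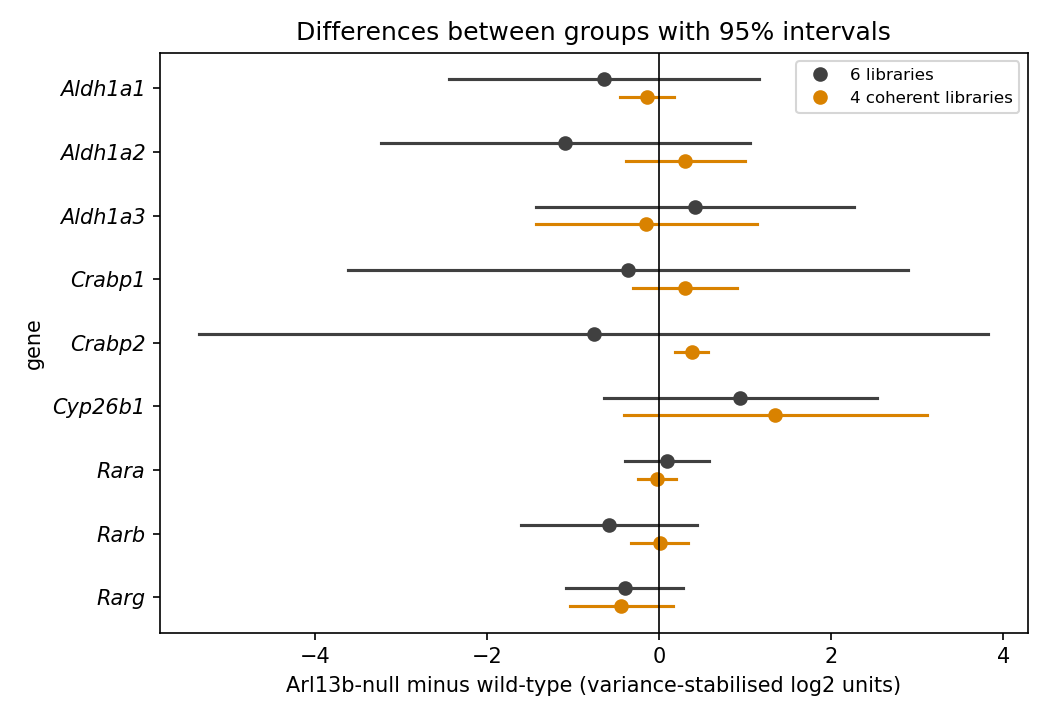
Difference of the mean variance-stabilised value (horizontal axis, log2 units), Arl13b-null minus wild-type, for each gene, with points for the estimate and lines for its 95% interval in limma over 6 libraries (grey) and over the 4 coherent libraries (orange). Every 6-library interval spans 0, and of the 4-library intervals only that of Crabp2, 0.18 to 0.57, does not.

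The synthesis genes were the members at low counts, and each was extreme in a library that stood apart. Aldh1a2, the main retinoic acid source of the early embryo, had 151, 1.31 and 59.6 normalized counts in Arl13b-null 1 to 3 and 557, 74.0 and 65.2 in wild-type 1 to 3. It was highest in wild-type 1 and lowest in Arl13b-null 2, where its value corresponds to 1 read, and the groups overlapped. Its level was 6.69 ± 1.19 in Arl13b-null and 7.78 ± 1.31 in wild-type libraries (SD of variance-stabilised values, n = 3 each), a difference of −1.09 ± 0.87 (SE; limma adjusted p = 0.990) that was −0.34 without wild-type 1 and −0.45 without Arl13b-null 2. Over the coherent libraries the difference was 0.30 ± 0.28 (limma adjusted p = 0.673). It was 0.73 without Arl13b-null 3 and −0.12 without Arl13b-null 1, so that even its sign rested on a single library.

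Aldh1a3, which makes retinoic acid in the lateral ganglionic eminence, the eye and the nasal region, had 152, 469 and 17.2 normalized counts in Arl13b-null 1 to 3 and 119, 60.8 and 91.3 in wild-type 1 to 3. Both its highest and its lowest value belonged to the Arl13b-null group, at Arl13b-null 2 and Arl13b-null 3, and the wild-type values lay between them. The difference was 0.42 ± 0.75 over 6 libraries and −0.15 ± 0.51 over 4 (SE; limma adjusted p = 0.990 and 0.923). Markers of the lateral ganglionic eminence and striatum, 14 genes, summed to 17455, 11850 and 18001 normalized counts in Arl13b-null 1 to 3. In wild-type 1 to 3 their sums were 18306, 14819 and 14932. This sum was thus lowest in Arl13b-null 2 and, among the coherent libraries, highest in Arl13b-null 3. In Arl13b-null 2 most of the sum came from Foxp1, with 9452, which was higher there than in any other library. The mean variance-stabilised value of the list was 7.68 in Arl13b-null 2, against 9.34 to 9.76 in the other libraries. The part of that tissue in the Aldh1a3 level was not tested. Within the coherent libraries the Aldh1a3 difference was 0.67 without Arl13b-null 3, the coherent library with the lowest telencephalic sum. Without Arl13b-null 1 it was −0.97 and passed (limma adjusted p = 0.0432, in a range of 0.0432 to 0.995 over the alternatives), in a fit where 725 genes pass.

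Aldh1a1, known from the dorsal retina and midbrain dopamine neurons, had 2.91, 36.7 and 6.75 normalized counts in Arl13b-null 1 to 3 and 226, 7.26 and 7.85 in wild-type 1 to 3. In the 4 coherent libraries these values correspond to between 4 and 11 reads, so the difference over 4 libraries rests on few reads and carries counting error. Wild-type 1, at 36.6 times the mean of the coherent libraries, brought the gene over the filter on low values, by a margin of 0.14. The difference was −0.64 ± 0.73 over 6 libraries and −0.14 ± 0.13 over 4 (SE; limma adjusted p = 0.990 and 0.665), and 0.16 over 6 when wild-type 1 was left out.

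Of the binding protein genes, Crabp2 had the widest range of the members over 6 libraries and the smallest unadjusted p over 4. Crabp2 had 3505, 7.91 and 4006 normalized counts in Arl13b-null 1 to 3 and 391, 2976 and 2765 in wild-type 1 to 3. The coherent Arl13b-null libraries lay above both coherent wild-type libraries, while Arl13b-null 2 and wild-type 1 had 0.00239 and 0.118 times the mean of the coherent libraries. The difference over 4 libraries was 0.38 ± 0.079 (SE, n = 2 per group; 95% interval 0.18 to 0.57; limma unadjusted p = 0.00381), a ratio of mean normalized counts of 1.31, and it did not pass after adjustment over all genes (adjusted p = 0.144). It kept its sign without each coherent library, between 0.28 without Arl13b-null 3 (limma adjusted p = 0.193) and 0.47 without Arl13b-null 1 (limma adjusted p = 0.0178), where it passed. Over the alternatives its limma adjusted p ranged between 0.0178 and 0.450. Over 6 libraries the level was 9.87 ± 3.52 in Arl13b-null and 10.63 ± 1.55 in wild-type libraries (SD, n = 3 each), a difference of −0.76 ± 1.85 (SE; limma adjusted p = 0.990) that became 1.27 without Arl13b-null 2.

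Crabp1, whose protein is a close relative of that of Crabp2 and is known to limit free retinoic acid, had 2265, 96.4 and 3252 normalized counts in Arl13b-null 1 to 3 and 442, 2718 and 1771 in wild-type 1 to 3. It was low in the same libraries as Crabp2, Arl13b-null 2 and wild-type 1, and the coherent groups overlapped. The difference was −0.36 ± 1.32 over 6 libraries and 0.30 ± 0.24 over 4 (SE; limma adjusted p = 0.990 and 0.630). Over 4 libraries it was −0.0014 without wild-type 3 and 0.60 without wild-type 2.

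Some marker lists were low in both libraries where the Crabp genes were low, and others were not. The summed level of 13 genes of dividing cells was 92051, 2721 and 101429 normalized counts in Arl13b-null 1 to 3 and 21327, 86400 and 92598 in wild-type 1 to 3, so this list was low in Arl13b-null 2 and wild-type 1, as both Crabp genes were. Red blood cell genes, with 0.000494 and 0.0618 times the coherent mean in Arl13b-null 2 and wild-type 1, and nasal placode genes, with 0.117 and 0.485 times, were low there too. The summed level of 14 genes of meninges and head mesenchyme was 28932, 622 and 34121 in Arl13b-null 1 to 3 and 28167, 74619 and 37426 in wild-type 1 to 3. Arl13b-null 2, with 1 read of Aldh1a2, was thus also the library with little mesenchymal RNA, while wild-type 1 was near Arl13b-null 1. The mesenchymal markers Foxd1 and Foxc2 were listed at 0 in Arl13b-null 2. Of 13 surface ectoderm genes, 13 had groups that did not overlap over 6 libraries, against 8.26% of all genes, with sums between 218 and 933 in Arl13b-null and between 2224 and 19497 in wild-type libraries, highest in wild-type 1, and Krt5 and Cdh1 were listed at 0 in Arl13b-null 2. The sum over 13 genes of postmitotic neurons was 772500 in Arl13b-null 2 and 326425 in wild-type 1, against 164371 to 174460 in the coherent libraries. The part of these cell types in the levels of the retinoic acid genes was not tested, and in bulk samples fewer cells of a type and less RNA per cell cannot be told apart.

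**Figure D3:**
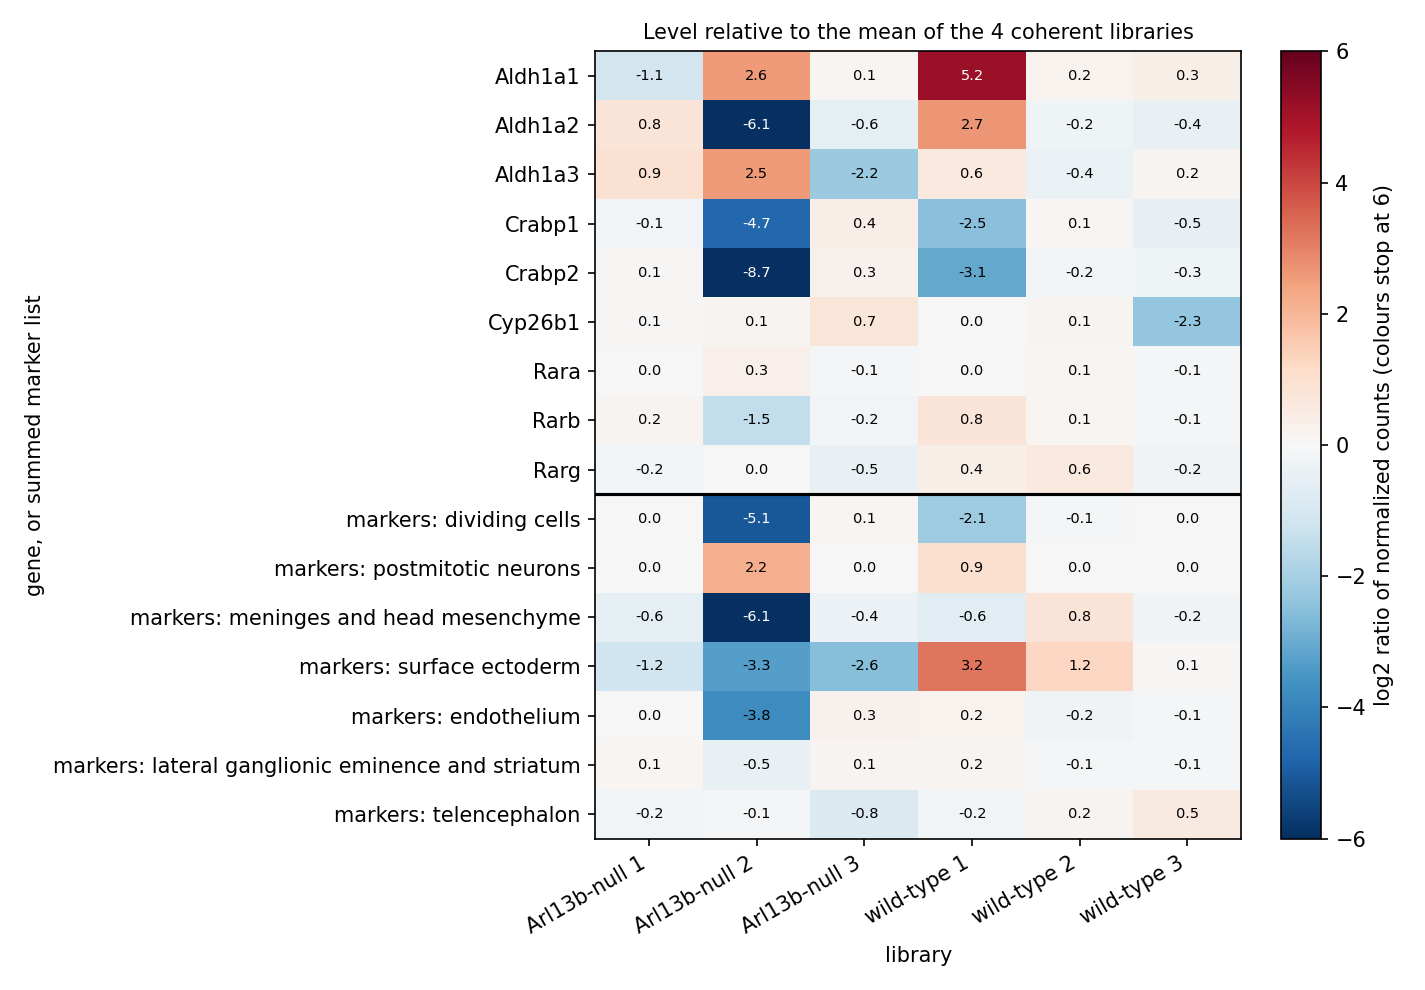
Log2 ratio of each library's normalized counts to the mean of the 4 coherent libraries (columns are libraries, rows are the 9 genes above the line and summed marker lists below it, colours stop at 6). Crabp1, Crabp2 and the dividing-cell markers are low in Arl13b-null 2 and wild-type 1, and Cyp26b1 is below 0 only in wild-type 3, at −2.31.

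Cyp26b1, the retinoic acid hydroxylase that shields tissues from the signal, was set apart by 1 wild-type library. It had 1581, 1679 and 2495 normalized counts in Arl13b-null 1 to 3 and 1527, 1675 and 305 in wild-type 1 to 3. Wild-type 3 had 0.202 times the mean of the coherent libraries, while the other 5 values were within 1527 to 2495, with wild-type 1 and Arl13b-null 2 among them. The level was 10.93 ± 0.35 in Arl13b-null and 9.98 ± 1.25 in wild-type libraries (SD, n = 3 each). The difference was 0.95 ± 0.64 over 6 libraries (SE; limma adjusted p = 0.990). Permuting the 6 libraries gave an exact two-sided p of 0.2, and 0.1 is the least that this design allows. The difference was 1.35 ± 0.70 over 4 (SE; limma adjusted p = 0.454). Without wild-type 3 it was 0.22 over 6 libraries and 0.24 over 4. No marker list was as low in wild-type 3 as Cyp26b1: the lowest sums there were 0.563 times the coherent mean for red blood cells and 0.770 times for eye and pigment epithelium.

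Over 6 libraries the receptor genes had the 3 smallest ranges of variance-stabilised values among the members, 0.38 for Rara, 0.92 for Rarg and 1.75 for Rarb. Over the coherent libraries the range was 0.20 for Rara, 0.29 for Rarb and 0.92 for Rarg, and only Rara was below all the other members. Rara, the receptor gene known for the broadest expression, had 918, 1109 and 857 normalized counts in Arl13b-null 1 to 3 and 878, 969 and 834 in wild-type 1 to 3. All 6 values lay within a ratio of 1.33, with Arl13b-null 2 and wild-type 1, the libraries with little Crabp2, among them. The difference was 0.093 ± 0.20 over 6 libraries and −0.019 ± 0.088 over 4 (SE; limma adjusted p = 0.990 and 0.945), with a 95% interval of −0.24 to 0.20 over 4.

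Rarb, the receptor gene with the response element shown above, had 320, 101 and 250.5 normalized counts in Arl13b-null 1 to 3 and 483, 308 and 258 in wild-type 1 to 3. It was lowest in Arl13b-null 2 and highest in wild-type 1, and in the coherent libraries it differed by 0.0073 ± 0.13 (SE; 95% interval −0.33 to 0.34; limma adjusted p = 0.984). Over 6 libraries the difference was −0.58 ± 0.41 (limma adjusted p = 0.990), or −0.21 without Arl13b-null 2. Rarg, known from cartilage and epithelia, had 437, 489 and 356 normalized counts in Arl13b-null 1 to 3 and 630, 732 and 422 in wild-type 1 to 3. Its 2 highest values were in wild-type 1 and 2, which also had the 2 highest sums of surface ectoderm markers, 19497 and 4982. The order was otherwise not shared, as Rarg was higher in wild-type 2 than in wild-type 1. Arl13b-null 2, with the lowest sum, 218, had more Rarg than wild-type 3, with a sum of 2224. The part of that tissue in the level was not tested. The Rarg difference was −0.40 ± 0.27 over 6 libraries and −0.44 ± 0.24 over 4 (SE; limma adjusted p = 0.990 and 0.473), and −0.084 over 4 without wild-type 2.

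Per kilobase of exon, the members of each family could be set against each other. The sum of the Aldh1a genes was 102, 122 and 33.0 normalized counts per kilobase in Arl13b-null 1 to 3 and 367, 49.4 and 52.7 in wild-type 1 to 3. Aldh1a2 made up 65.4%, 0.476% and 79.7% of it in Arl13b-null 1 to 3 and 66.9%, 66.1% and 54.7% in wild-type 1 to 3. Aldh1a2 was thus the largest part in every library except Arl13b-null 2, where Aldh1a3 made up 86.9%. Crabp1 made up between 42.6% and 51.5% of the Crabp sum in the coherent libraries, but 93.4% in Arl13b-null 2 and 56.7% in wild-type 1. Among the receptor genes Rara had the largest part in all 6 libraries, with 49.0%, 59.9% and 52.8% in Arl13b-null 1 to 3 and 38.5%, 42.5% and 49.3% in wild-type 1 to 3. Rarb had the smallest, between 6.87% and 26.7%. Averaged over the coherent libraries, normalized counts per kilobase fell in the order Crabp2 (3558), Crabp1 (3119), Cyp26b1 (283), Rara (209), Rarg (143), Rarb (83.7), Aldh1a2 (38.7), Aldh1a3 (18.1) and Aldh1a1 (2.59). The ranges of the neighbours Crabp2 and Crabp1 overlapped over these libraries, as did those of Cyp26b1 and Rara, of Rara and Rarg, and of Aldh1a2 and Aldh1a3. The other neighbours in the order did not overlap.

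**Figure D4:**
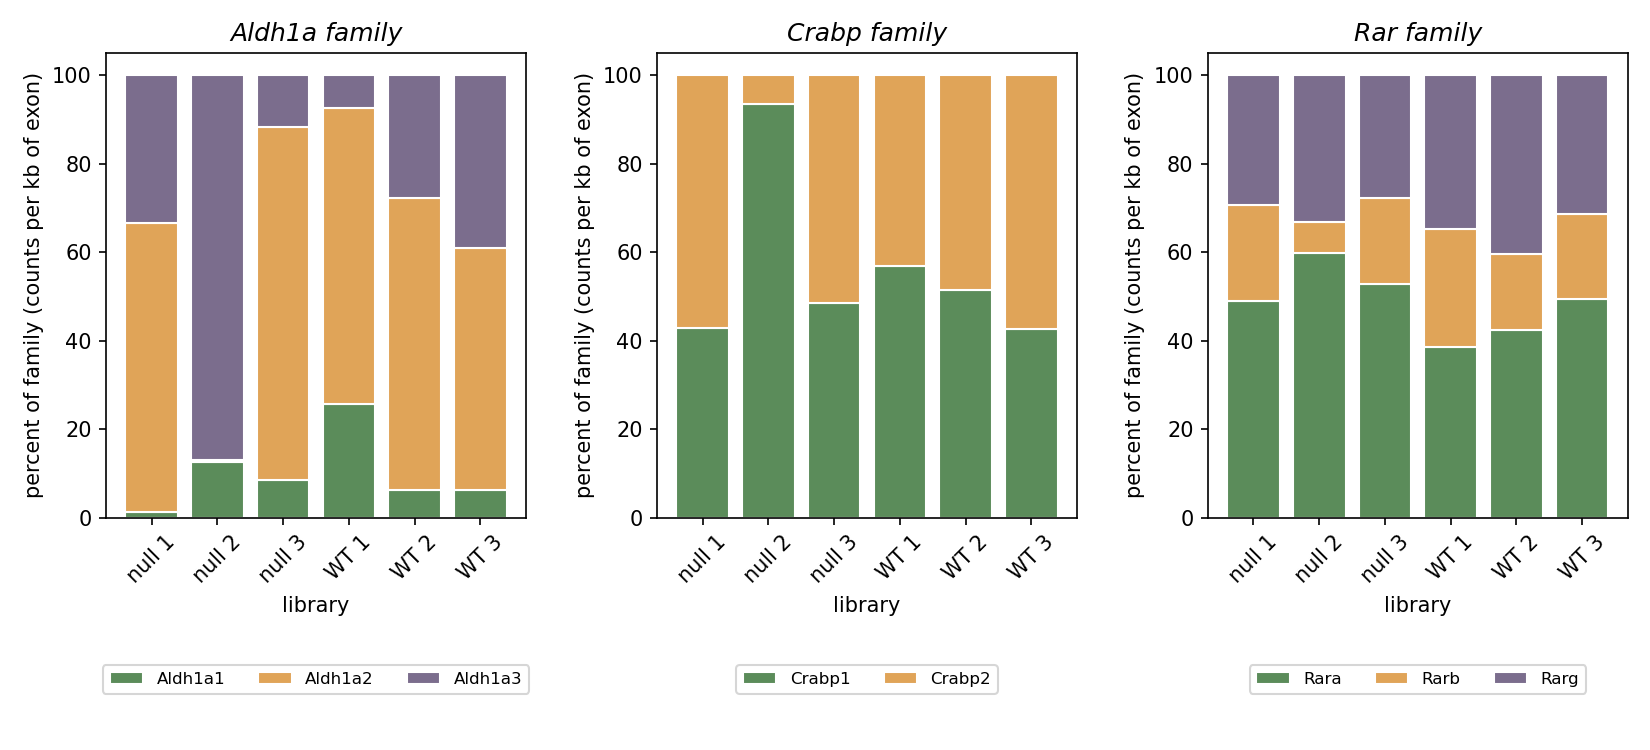
Share of each gene (vertical axis, percent of the family's normalized counts per kilobase of exon) in the Aldh1a, Crabp and Rar families, with 1 bar per library, Arl13b-null (null) left of wild-type (WT). Aldh1a3 and Crabp1 take 86.9% and 93.4% of their families in Arl13b-null 2, and Rara is the largest receptor part in all 6 libraries.

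Of 44 other genes of the pathway, 20 passed the filter on low values, and 0 of these 20 passed the test in either direction over 6 or over 4 libraries. Over 4 libraries 4 of the 20 had an unadjusted p under 0.05, in limma as above, against 14.4% of all genes. Without Arl13b-null 1, which leaves Arl13b-null 3 alone in its group and where 725 of 14249 genes pass, 2 of the 20 passed, namely Ncoa3 (limma adjusted p = 0.0438, in a range up to 0.703 over the alternatives) and Meis2 (0.00959, up to 0.534). Without Arl13b-null 3 the Ncoa3 difference was 0.11 (limma adjusted p = 0.647) and that of Meis2 was −0.25 (limma adjusted p = 0.221). Of the 15 genes of retinol supply, 5 were tested. Rdh10, which encodes the main embryonic enzyme that makes retinaldehyde from retinol, had 276, 271 and 262 normalized counts in Arl13b-null 1 to 3 and 391, 244 and 274 in wild-type 1 to 3. It was highest in wild-type 1, the groups overlapped, and its 4-library difference was 0.048 ± 0.091 (SE; limma adjusted p = 0.849). Stra6, the retinol uptake receptor, differed by −0.14 ± 0.16, Dhrs3, a retinaldehyde reductase, by 0.21 ± 0.15, and the dehydrogenase gene Adh5 by 0.083 ± 0.055. The other Cyp26 genes were near the lowest value: Cyp26a1, whose response element is shown above, had 7.26, 14.4 and 1.84 normalized counts in Arl13b-null 1 to 3 and 1.07, 5.27 and 7.05 in wild-type 1 to 3, and Cyp26c1 was at 3.32 or less. Fabp5, an alternative carrier of retinoic acid, was the 1 tested gene of the 4 listed for degradation and other binding, and differed by 0.021 ± 0.043 over 4 libraries.

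All 9 receptor partners and cofactors were tested. Rxra, the most widely known partner of the receptors, had 2793, 318 and 3044 normalized counts in Arl13b-null 1 to 3 and 1454.5, 2639 and 2544 in wild-type 1 to 3. It was low in the libraries where the Crabp genes were low, and over 4 libraries it differed by 0.17 ± 0.060 (SE; limma adjusted p = 0.305). Among the coactivator genes Ncoa1 differed by −0.27 ± 0.078 and Ncoa3 by 0.25 ± 0.10, and the corepressor gene Nrip1 by 0.16 ± 0.080, none past the threshold (limma adjusted p between 0.237 and 0.433). Of 16 target genes only 5 were tested, since the Hox genes listed had at most 38.7 normalized counts and Stra8 was listed at 0 in all 6 libraries. Meis2, a homeodomain factor of the striatal lineage, had 6565, 7882 and 5375 normalized counts in Arl13b-null 1 to 3 and 9644, 7560 and 8069.9 in wild-type 1 to 3, and differed by −0.39 ± 0.10 over 4 libraries (SE; limma adjusted p = 0.198). Nr2f2 and Nr2f1, which encode orphan receptors, differed by 0.20 ± 0.051 and 0.11 ± 0.088, and Meis1 by 0.27 ± 0.13.

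The genes with the most similar pattern to a member were found by the root mean square difference over 6 libraries, after each gene's own mean was subtracted, as a description without a test. For Aldh1a1 the nearest was Rxrg, the third Rxr receptor gene, at 0.10 log2 units, with 65.8, 173 and 62.5 normalized counts in Arl13b-null 1 to 3 and 606, 69.2 and 61.8 in wild-type 1 to 3. Like Aldh1a1 it was highest in wild-type 1 and next in Arl13b-null 2. The nearest to Crabp2 were Igf2bp1 (0.11) and the cyclin gene Ccnd1 (0.17), to Crabp1 the kinase gene Nuak2 (0.22) and the mitotic gene Cenpf (0.23), and to Aldh1a2 the pericyte gene Rgs5 (0.23) and Gad1 (0.30), which encodes a GABA-synthesising enzyme. For the receptors they were Tmtc4 (0.035) and Mrm3 (0.038) with Rara, the microglial receptor gene P2ry12 (0.077) and Mapkapk3 (0.10) with Rarb, and Arhgef16 (0.098) and Tap1 (0.14) with Rarg. Rasgrp1 (0.35) and Msantd1 (0.35) were nearest to Aldh1a3, and Matn4 (0.48) and Dbh (0.51) to Cyp26b1. These distances are not scaled by a member's own spread, so they do not rank the closeness of matches between members. That spread over 6 libraries was an SD of 0.89 for Aldh1a3 and for Cyp26b1, 0.31 for Rarg and 0.13 for Rara. Dbh, which encodes the enzyme of noradrenaline synthesis, had 56.7, 13.1 and 55.9 normalized counts in Arl13b-null 1 to 3 and 60.4, 48.2 and 0.786 in wild-type 1 to 3, and Matn4 was also lowest in wild-type 3, at 3.06.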

How the data were processed

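For 6 libraries the authors deposited variance-stabilised normalized counts in 1 table, on a log2 scale that runs from 5.13 to 18.39. The tools were Salmon 0.9.1, STAR 2.6.0, CASAVA, DESeq2 and DESeq 1.16.1, and the build was mm9, per the submitters' processing notes, which give no roles. The annotation is not given in the sources used here. RefSeq coordinates are of GRCm38.p6, not of the authors' build.

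The lowest value, shared by all 6 libraries, is that of a count of 0, which fixes the parametric transformation and allowed it to be undone. The value of 1 read, taken from the lowest values, was between 0.536 and 1.31 normalized counts, which gives 27600000 to 51700000 reads per library. Below 30 reads, 69.4% to 80.2% of values came within 0.05 of whole reads, too few for a count test. Levels of a few reads carry counting error.

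The 14249 genes with a mean over 6 libraries of 1 or more above the lowest value were tested in R 4.3.3 with limma 3.58.1, a mean-variance trend and two-sided Benjamini-Hochberg adjusted p under 0.05 over all genes. Exon lengths are unions of GENCODE M21 basic exons. On simulated data with 14249 genes, 32% of changes of 2 log2 units were recovered with 6 libraries and 88% with 4. For changes of 1 log2 unit these shares were 2% and 64%, and for 0.5 log2 units 0% and 44%. The simulated noise was independent between genes. Libraries that deviate over many genes together, as Arl13b-null 2 and wild-type 1 do, were not simulated, nor were differences of sex. The 9 genes, the other lists and the 4 coherent libraries were chosen with earlier results of these data known. The text names the 9 members, up to 4 genes per pathway list with the smallest 4-library p, the 2 nearest genes per member, skipping predicted and sex-linked genes, the 2 highest markers of a list or those listed at 0, and Arl13b. Ddx3y, Xist, Cyp26a1, Cyp26c1 and Stra8 were chosen after their values were seen. Some genes of the lists are not reported here. Alternatives were filters, quantile normalization, centring, library weights, robust moderation, no trend, inverted counts with a pseudocount of 1, a replicate block and leaving out each library. Those for pathway genes were added after the values were seen. Figures were drawn with matplotlib 3.10.9.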

Additional observations from a re-analysis of the deposited data

How the results depend on the processing

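No member passed under any of the 15 alternatives of the 6-library comparison, and none of the 9 under 10 of 11 alternatives of the 4-library comparison. Without Arl13b-null 1, 2 passed, Aldh1a3 and Crabp2. Leaving out a coherent library leaves 1 in its group, which is assumed to vary like the group of 2. Over 6 libraries, library weights, whose estimation stopped short of convergence, called 214 genes and 1 pathway gene, Meis2, against 0 and 0, and leaving out a library gave 0 to 4 genes. Over 4 libraries the 36 genes became 59 with quantile normalization, 7 without the trend and 98 with robust moderation, and leaving out a library gave 6 to 725 genes, 0 to 2 members and 0 to 2 pathway genes. The cause was not tested.

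With library weights the 6-library sign turned for Aldh1a3 (−0.84), Rara (−0.11), Crabp1 (0.35), Crabp2 (0.38), Ncoa1 (−0.20), Rxra (0.18), Ncoa3 (0.34), Nr2f2 (0.21), Meis1 (0.17) and Rdh10 (0.050), and with quantile normalization for Ncoa1 (−0.11) and Rdh10 (0.060). Over 4 libraries centring turned Rarb (−0.0078) and quantile normalization Fabp5 (−0.016). Leaving out 1 of 6 libraries gave −1.05 to 0.16 for Aldh1a1, −0.29 to 1.18 for Aldh1a3, −0.0082 to 0.17 for Rara, −1.18 to 1.02 for Crabp1, −1.82 to 1.27 for Crabp2, −0.15 to 0.73 for Fabp5, −0.64 to 0.40 for Ncoa1, −1.07 to 0.43 for Rxra, −0.32 to 0.26 for Ncoa3, −0.045 to 0.64 for Nrip1, −0.72 to 0.36 for Nr2f2, −1.55 to 0.45 for Meis1, −0.011 to 0.36 for Nr2f1, −0.35 to 0.59 for Dhrs3 and −0.23 to 0.051 for Rdh10. Leaving out 1 of 4 gave −0.12 to 0.73 for Aldh1a2, −0.97 to 0.67 for Aldh1a3, −0.12 to 0.082 for Rara, −0.14 to 0.15 for Rarb, −0.0014 to 0.60 for Crabp1, −0.014 to 0.23 for Nr2f1, −0.021 to 0.12 for Rdh10 and −0.37 to 0.087 for Stra6. Values that kept their sign but moved by over 1.5 times when 1 of 4 was left out were 0.11 to 0.38 for Ncoa3, 0.072 to 0.25 for Nrip1, 0.11 to 0.23 for Rxra, −0.37 to −0.17 for Ncoa1, 0.081 to 0.46 for Meis1, 0.023 to 0.39 for Dhrs3, 0.025 to 0.14 for Adh5, 0.0096 to 0.032 for Fabp5, −0.25 to −0.035 for Aldh1a1, −0.79 to −0.084 for Rarg, 0.24 to 2.47 for Cyp26b1 and −0.53 to −0.25 for Meis2. With 1 of 6 left out they were −1.62 to −0.34 for Aldh1a2, −0.84 to −0.21 for Rarb, −0.60 to −0.25 for Rarg, 0.22 to 1.34 for Cyp26b1, −1.43 to −0.23 for Stra6, 0.044 to 0.23 for Adh5 and −0.49 to −0.22 for Meis2. With library weights Aldh1a2 was −0.19 over 6 libraries. With inverted counts the 6-library differences were further from 0 for Aldh1a1 (−1.29), Aldh1a2 (−2.34) and Crabp2 (−1.56). Of 570 alternative values of these 22 genes, 45 changed sign. The replicate block left 0 genes past the threshold over 6 libraries. Deviations of same-numbered libraries correlated at −0.71, −0.71 and 0.62, so the numbers do not pair them, and in the 4 libraries the groups share only the number 3, so no block was fitted.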
